A study of Mus musculus with 12 samples.

Results

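Bone morphogenetic proteins (BMPs) and the Id genes, their best-known early targets, were followed across 4 transfections of C2C12 cells, a mouse myoblast line. The members were 10 genes fixed by name: the ligands Bmp2 and Bmp4, the secreted antagonists Nog and Grem1, the decoy receptor Bambi, the inhibitory Smad Smad6, and Id1, Id2, Id3 and Id4. Every probe whose transcript accession belongs to one of these genes was taken, which gave 11 probes, 2 for Bmp4 and 1 for each other gene, of 39429 probes and 32451 genes on the array. Of the 10 genes, 7 passed the filter on dim probes and were tested (Id1, Id2, Id3, Bmp4, Smad6, Nog and Grem1), while Id4, Bmp2 and Bambi did not.

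RNA was taken 72 h after transfection from cells grown in 10% serum, a growth medium. The 4 groups, each with 3 arrays, were labelled as a negative control, an siRNA, the plasmid pcDNA3.1 and the plasmid pcDNA3.1-MEG3. The study set out to overexpress (pcDNA3.1-MEG3) and knock down (siRNA) MEG3, a long non-coding RNA of the imprinted Dlk1-Dio3 locus. pcDNA3.1 is a mammalian expression vector whose promoter is the cytomegalovirus one. The labels name neither what the negative control carried nor whether replicates were separate cultures, so the p-values cover only how far these samples differ, which can be technical.

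In the BMP pathway a secreted ligand binds paired type I and type II receptors, which phosphorylate Smad1, Smad5 and Smad9, and these enter the nucleus with Smad4 to switch on genes such as Id1, Id2, Id3 and Smad6. Id proteins have a helix-loop-helix but no basic DNA-binding region, so they pair with E proteins and keep them from the myogenic factors Myod1, Myog, Myf5 and Myf6. C2C12 is a textbook system for this: added BMP2 turns these cells from muscle formation towards an osteoblast fate, and Smad6, Nog, Grem1 and Bambi act as brakes at different steps.

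The promoter windows of Id2, Id3 and Smad6, the BMP targets called against the negative control, are shown for reference, from RefSeq on GRCm38.p6, each covering 250 bases before to 50 after the gene's start on the gene's strand. Capitals mark GGCGCC, a GC-rich sequence bound by BMP Smads, GTCT or its reverse AGAC, the Smad box, and CAGCTG, an E box, searched on both strands. The 3 motifs overlapped in none of these windows.
Id2, minus strand, chr12:25096043-25096342: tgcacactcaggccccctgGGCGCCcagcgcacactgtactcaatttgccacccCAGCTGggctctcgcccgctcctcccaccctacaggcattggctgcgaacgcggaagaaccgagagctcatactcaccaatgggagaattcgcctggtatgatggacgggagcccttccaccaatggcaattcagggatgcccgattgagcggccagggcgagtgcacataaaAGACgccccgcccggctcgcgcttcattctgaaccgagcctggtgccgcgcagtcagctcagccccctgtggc
Id3, plus strand, chr4:136143572-136143871: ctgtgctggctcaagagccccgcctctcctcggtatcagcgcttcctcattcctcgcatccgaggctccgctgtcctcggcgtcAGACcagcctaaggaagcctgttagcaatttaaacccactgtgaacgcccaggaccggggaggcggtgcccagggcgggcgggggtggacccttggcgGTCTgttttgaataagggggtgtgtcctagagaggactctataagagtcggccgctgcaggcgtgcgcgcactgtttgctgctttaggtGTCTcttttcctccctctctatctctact
Smad6, minus strand, chr9:64022010-64022309: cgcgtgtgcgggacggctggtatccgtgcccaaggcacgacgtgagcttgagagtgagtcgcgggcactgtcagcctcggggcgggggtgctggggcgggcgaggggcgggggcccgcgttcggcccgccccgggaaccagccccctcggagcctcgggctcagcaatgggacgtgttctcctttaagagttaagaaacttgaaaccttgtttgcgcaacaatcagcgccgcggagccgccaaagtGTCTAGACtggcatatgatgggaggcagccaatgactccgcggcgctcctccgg
The Id2 window held each of the 3 motifs at 1 place. The Id3 window held GTCT or AGAC at 3 places and neither of the other motifs. In the Smad6 window the 2 matches lay back to back as GTCTAGAC, the palindrome known as the Smad-binding element, which was looked for after the window had been read. Over all 32851 windows of this length, 11.9% held GGCGCC, 88.0% held GTCT or AGAC, 16.3% held CAGCTG and 0.213% held GTCTAGAC. Windows were read for 6 of the 10 members, these 3 and Id4, Bmp4 and Grem1. A match describes the letters only.

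Levels are given as log2 of the processed signal relative to the 75th percentile of the same array, so that a probe at 0 is as bright as that percentile. Differences are in log2 units with a standard error (SE) from limma, and a gene was called at a Benjamini-Hochberg adjusted p under 0.05 over all genes tested. Since replicates 1 and 3 of each group differed by less than the noise between repeated spots on 1 array, they were averaged into 1 sample and replicate 2 was the other, so each group has n = 2 samples. In the plasmid and siRNA groups, replicates 1 and 3 also carry the same slide and position in the file headers and differ in their scan, as 1 array scanned again would. Where 3 arrays of such a group are counted below, replicates 1 and 3 are no independent values. Levels of different genes come from different probes and are not compared with each other.

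Across arrays, 24125 to 29900 probes were well above background and 0 spots were saturated. Negative control replicate 2 stood apart: it differed from replicates 1 and 3 by 4.06 and 3.65 times the spot noise. The differences of members called against this group, and the medians of the pathway lists, are given with and without it. Meg3 itself went against the plasmid labels, with a level of -2.43 ± 0.07 (SD, n = 2) on the arrays labelled pcDNA3.1, well above background on 3 of 3, and of -7.17 ± 0.84 on those labelled pcDNA3.1-MEG3, well above background on 0 of 3. If the plasmid labels were exchanged, every difference between the plasmid groups would turn its sign and pcDNA3.1 would be a treated group; whether they were was not tested. The probe passed background on 1 of 3 negative control and 0 of 3 siRNA arrays, so the knockdown could not be checked. "pcDNA3.1", "pcDNA3.1-MEG3" and "siRNA" therefore stand for the arrays labelled so. The negative control, the plasmid groups and the siRNA group lay on separate slides, so slide and transfection cannot be told apart except between the plasmid groups.

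**Figure D1:**
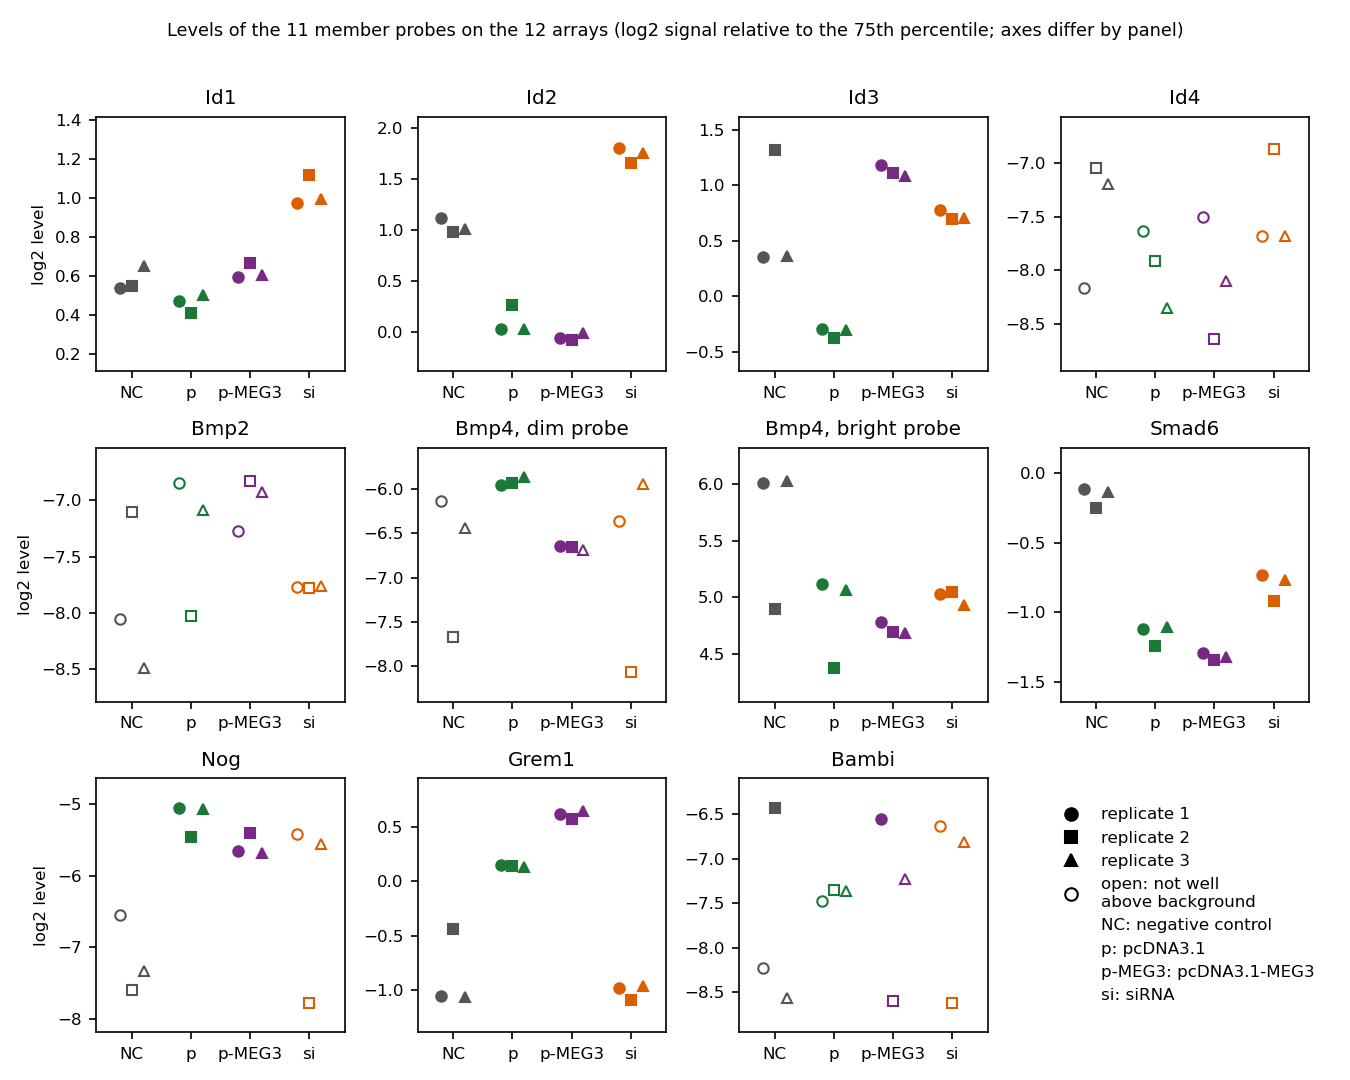
Level of each of the 11 member probes (vertical axis, log2 signal relative to the array's 75th percentile, with a scale of its own in each panel) on the 3 arrays of each of the 4 groups, open where the probe was not well above background. Id2 and Smad6 form separate levels in the negative control, plasmid and siRNA groups, negative control replicate 2 lies apart for Id3, Bmp4 and Grem1, and Id4 and Bmp2 are open on all 12 arrays.

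Among the ligands, Bmp4 was bright by 1 of its 2 probes and dim by the other, and Bmp2 was not detected. Why the Bmp4 probes differ was not tested. The bright Bmp4 probe read 6.01, 4.90 and 6.03 on the negative control arrays, 5.12, 4.37 and 5.07 on the pcDNA3.1 arrays, 4.78, 4.69 and 4.68 on the pcDNA3.1-MEG3 arrays, and 5.03, 5.05 and 4.93 on the siRNA arrays. Negative control replicates 1 and 3 were the highest and pcDNA3.1 replicate 2 the lowest, and the ranges of all neighbouring groups overlapped. No Bmp4 difference passed the test: siRNA minus negative control was -0.44 (SE 0.41, adjusted p = 0.538) and pcDNA3.1 minus negative control -0.73 (SE 0.41, adjusted p = 0.248). Without negative control replicate 2 these became -1.005 and -1.29. The second difference passed the test under 2 of the 14 alternatives run. The other Bmp4 probe was dim, well above background on 3 of 3 pcDNA3.1 arrays, 2 of 3 pcDNA3.1-MEG3 arrays and no other, at -5.92 ± 0.02 (SD, n = 2) with pcDNA3.1. Its levels in the negative control and siRNA groups are only bounded by the background, so its groups were not ordered. Averaging the 2 probes, those values included, turned pcDNA3.1 minus negative control to 0.17.

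The Bmp2 probe lay between -8.49 and -6.83 and was well above background on 0 of 12 arrays, so its level is only bounded by the background. Id4 was likewise well above background on 0 of 12 arrays (-8.64 to -6.87). Bambi, a pseudoreceptor that lacks a kinase domain, passed background on 2 of 12, negative control replicate 2 (-6.42) and pcDNA3.1-MEG3 replicate 1 (-6.55).

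Of the secreted antagonists, Grem1 was higher with pcDNA3.1 than in the negative control, and no difference of Nog passed the test. Grem1, known as gremlin, read -1.06, -0.44 and -1.06 on the negative control arrays, 0.15, 0.14 and 0.13 with pcDNA3.1, 0.62, 0.58 and 0.65 with pcDNA3.1-MEG3, and -0.98, -1.09 and -0.96 with siRNA. The 6 plasmid arrays lay above the 6 others, and the pcDNA3.1-MEG3 arrays above the pcDNA3.1 arrays. siRNA and the negative control overlapped, and the gap of 0.28 between their means was smaller than the larger of their SDs (0.44). Nog, known as noggin, was dim and passed the filter only through the plasmid groups: it was well above background on all 6 plasmid arrays, at -5.05, -5.46 and -5.07 with pcDNA3.1 and -5.65, -5.41 and -5.68 with pcDNA3.1-MEG3. It was not well above background on any negative control array (-6.54, -7.59 and -7.33) or siRNA array (-5.42, -7.78 and -5.56). The bound there is each array's lowest signal well above background, or the measured value where higher. Against it Nog was at least 2.69-fold higher in pcDNA3.1 than in the negative control (adjusted p = 0.106). Averaged over the siRNA samples, Nog was at least 1.53-fold lower there than in the plasmid groups (adjusted p = 0.194). Neither difference passed the test. The siRNA bound is not met by each sample and rests on replicate 2 (-7.78). Replicates 1 and 3 (-5.42 and -5.56) lay within the range of the plasmid arrays.

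Smad6, which blocks the BMP type I receptor and the Smads it activates and is itself BMP-induced, was highest in the negative control. Its arrays read -0.12, -0.25 and -0.13 in the negative control, -0.73, -0.92 and -0.77 with siRNA, -1.12, -1.24 and -1.11 with pcDNA3.1, and -1.29, -1.34 and -1.32 with pcDNA3.1-MEG3. No 2 groups overlapped, and every gap between neighbours was larger than their SDs, the narrowest being 0.15 between the plasmid groups.

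The 3 measured Id genes did not follow one order of groups. Id1 read 0.54, 0.55 and 0.65 in the negative control, 0.47, 0.41 and 0.50 with pcDNA3.1, 0.59, 0.66 and 0.61 with pcDNA3.1-MEG3, and 0.97, 1.11 and 0.99 with siRNA. The siRNA arrays were the 3 highest, while pcDNA3.1-MEG3 and the negative control overlapped. Id2 read 1.12, 0.98 and 1.01 in the negative control, 0.03, 0.27 and 0.03 with pcDNA3.1, -0.05, -0.08 and -0.01 with pcDNA3.1-MEG3, and 1.80, 1.65 and 1.75 with siRNA. Its groups fell into a siRNA level, a lower negative control level and a lowest plasmid level with no overlap. Id3 read 0.36, 1.32 and 0.37 in the negative control, -0.29, -0.37 and -0.30 with pcDNA3.1, 1.18, 1.11 and 1.08 with pcDNA3.1-MEG3, and 0.77, 0.70 and 0.70 with siRNA. The pcDNA3.1 arrays were the 3 lowest, and the negative control spanned the siRNA and pcDNA3.1-MEG3 ranges because replicate 2 lay 0.96 above replicates 1 and 3.

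The knockdown comparison asked what the siRNA against MEG3 did relative to the negative control. Of the 7 members tested, 1 rose (Id2) and 1 fell (Smad6) in siRNA, beside 12.4% of all 24526 genes called, 7.77% higher and 4.66% lower. Id2 was higher by 0.70 (SE 0.15, 1.62-fold, adjusted p = 0.0353) and Smad6 differed by -0.65 (SE 0.14, 1.56-fold lower, adjusted p = 0.0386), so the 2 BMP-induced genes moved in opposite directions. Id1 was higher by 0.48 (SE 0.13) but missed the threshold (adjusted p = 0.0674). Id3 and Grem1 differed by -0.12 (adjusted p = 0.842) and -0.28 (adjusted p = 0.466).

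Without negative control replicate 2, which leaves 1 sample in that group, Id2 was higher by 0.65, Id1 by 0.45 and Id3 by 0.36. Smad6 differed by -0.71. With replicate 2 as the lone negative control sample, Id3 was instead lower in siRNA by a difference of -0.60, so the direction of Id3 rests on which control array is used. The calls of Id2 and Smad6 were lost with either siRNA sample left out (adjusted p = 0.0507 and 0.116 for Id2, 0.096 and 0.0773 for Smad6), when only the 2 compared groups were fitted, and without the filter on dim probes.

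The comparison labelled as overexpression, pcDNA3.1-MEG3 against pcDNA3.1, lies within 1 slide, and Meg3 itself was the lower in pcDNA3.1-MEG3. It called 0 of the 7 members by limma, beside 0.00814% of all 24565 genes (2 genes, with 2497 at an unadjusted p under 0.05). The largest member difference was Id3, higher by 1.46 (SE 0.30, 2.75-fold, adjusted p = 0.217), and next Grem1, higher by 0.47 (SE 0.22, adjusted p = 0.541). For both genes the 3 arrays of pcDNA3.1-MEG3 lay above the 3 of pcDNA3.1, where replicates 1 and 3 of a group share a slide position. Id1, Id2, Smad6, Bmp4 and Nog differed by 0.18, -0.20, -0.15, -0.02 and -0.28.

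The size of the Id3 difference moved little between fits, while its adjusted p moved past the threshold. Id3 was higher by 1.48 within the first scan of the slide (2 arrays a group, adjusted p = 0.0152) and 1.38 within the second scan (1 array a group, no test), whose arrays have the slide positions of replicate 1 and are no independent value. With scan as a block over the 6 plasmid arrays it was 1.45 (adjusted p = 0.000461), and Grem1 0.48 (adjusted p = 0.00286). These fits and the fit of the plasmid groups alone (adjusted p = 0.014 for Id3 and 0.0456 for Grem1) leave out the spread of the negative control and siRNA groups, and those by scan count replicates 1 and 3 apart, although they differed by less than spot noise.

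The change within the negative control resembled the plasmid difference. Across 24541 genes, the difference of negative control replicate 2 from replicates 1 and 3 correlated with that of pcDNA3.1-MEG3 from pcDNA3.1 at r = 0.48, a correlation across genes, which are not independent replicates. Of the 1821 genes with a split over 1 log2 unit in the negative control, 81.1% had the same sign in both. Id3 lay 0.96 higher in negative control replicate 2 and Grem1 0.62 higher, beside their plasmid differences of 1.46 and 0.47, while Bmp4 differed by -1.12 in that array and by -0.02 between the plasmids. What sets that array apart was not tested.

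**Figure D2:**
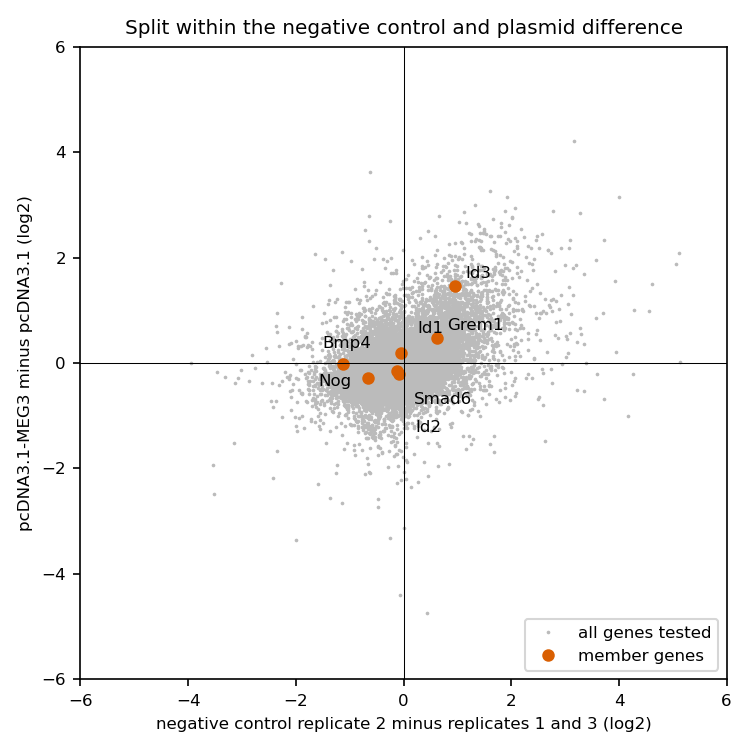
Each point is a gene, placed by the log2 difference of negative control replicate 2 from replicates 1 and 3 (horizontal axis) and by the log2 difference of pcDNA3.1-MEG3 from pcDNA3.1 (vertical axis), with the 7 tested members in orange. Id3 (0.96 and 1.46) and Grem1 (0.62 and 0.47) lie in the upper right, in the direction of the cloud of all genes, and Id1, Id2 and Smad6 lie near the centre.

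More members were called between the groups labelled pcDNA3.1 and negative control than in either comparison of a group labelled as treated with its control. Of these groups Meg3 was well above background on all arrays only with pcDNA3.1. Against the negative control, Id2, Id3 and Smad6 fell and Grem1 rose with pcDNA3.1, 4 of 7 members beside 17.9% of all 24564 genes, 11.3% higher and 6.64% lower. Id2 differed by -0.87 (SE 0.15, 1.83-fold lower, adjusted p = 0.0162), Smad6 by -0.99 (SE 0.14, 1.98-fold lower, adjusted p = 0.0108) and Id3 by -1.18 (SE 0.30, 2.26-fold lower, adjusted p = 0.0487). Grem1 was higher by 0.89 (SE 0.22, 1.85-fold, adjusted p = 0.0445), and Id1 differed by -0.12 (adjusted p = 0.522). The antagonist gene Grem1 was higher while Id2, Id3 and Smad6 were lower, and Id1 and Nog were not called. Under the alternatives Id1 passed the test in 1 of 14, with differences from -0.57 to -0.08, and Nog in 2 of 13. Fst and Fstl1, other antagonist genes given below, were lower, and whether these changes are linked was not tested.

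Without negative control replicate 2 the 4 differences kept their signs, Id2 at -0.91, Smad6 at -1.05, Id3 at -0.70 and Grem1 at 1.20, and Bmp4 differed by -1.29. All 4 calls were lost with either pcDNA3.1 sample left out, and Grem1 was not called with each array scaled to its median (0.44, adjusted p = 0.238). With normexp background correction neither Id2 (-0.46, adjusted p = 0.0837) nor Grem1 (0.65, adjusted p = 0.0869) was called, and Id3 missed the threshold with quantile normalisation (-1.20, adjusted p = 0.0536). Neither Id3 nor Grem1 was called without the filter on dim probes (adjusted p = 0.0693 and 0.0679) or with the 2 groups fitted alone (0.0731 and 0.0819).

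siRNA was also set against the plasmid groups together, which shares samples with the comparisons above and adds no independent support. Id2 was higher by 1.67 (SE 0.13, 3.18-fold, adjusted p = 0.00106) and Id1 by 0.51 (SE 0.11, 1.42-fold, adjusted p = 0.0304), and Grem1 differed by -1.40 (SE 0.19, 2.65-fold lower, adjusted p = 0.00714). These were 3 of 7 members beside 18.7% of all 24523 genes, 10.6% higher and 8.12% lower, and Smad6, higher by 0.41, missed the threshold (adjusted p = 0.0651). The Id2 and Grem1 differences passed the test under all 16 alternatives run, and the Id1 difference under 8 of 16.

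**Figure D3:**
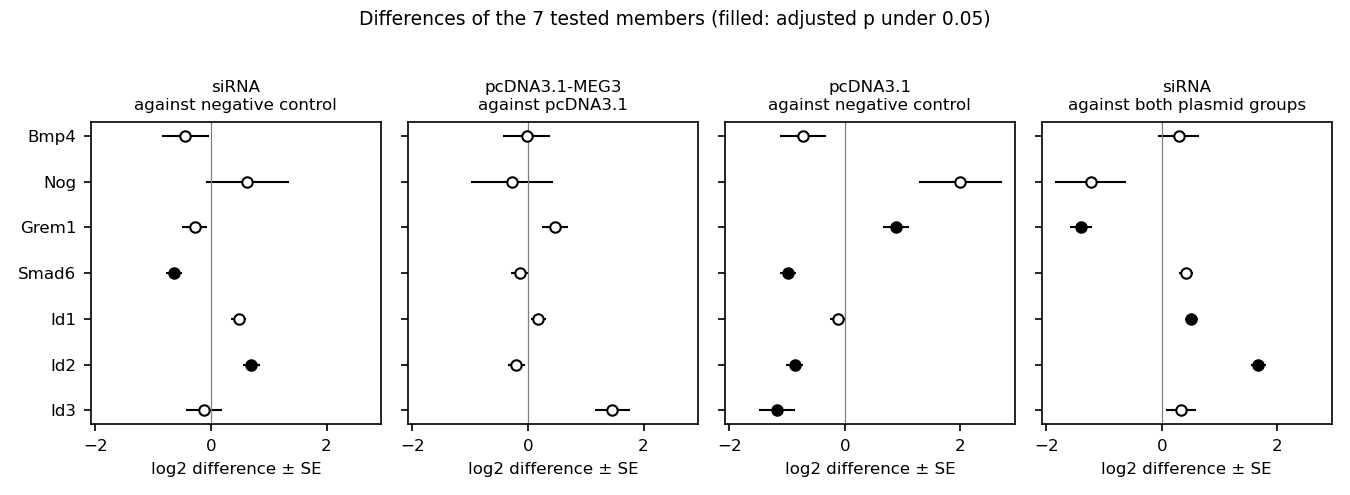
Log2 difference with its SE (horizontal axis) for the 7 tested members in the 4 comparisons, filled where the adjusted p was under 0.05. Id2 and Smad6 are filled for siRNA against negative control, no member for pcDNA3.1-MEG3 against pcDNA3.1, 4 members for pcDNA3.1 against negative control, and Id1, Id2 and Grem1 for siRNA against the plasmid groups; Nog is a measured value that rests on background in the negative control and siRNA groups.

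The way arrays are scaled bears on these values. With each array scaled to its median, the median difference over all genes moved from 0.06 to -0.13 for siRNA against negative control, from 0.22 to -0.23 for pcDNA3.1 against negative control and from -0.11 to 0.12 for siRNA against the plasmids. The share of called genes that were higher moved from 62.5% to 41.1%, from 63.0% to 19.8% and from 56.6% to 78.5% (47.3% and 68.6% for pcDNA3.1 against negative control and siRNA against the plasmids with quantile normalisation, and 46.8% for the former in the authors' table). Id2, Smad6, Id3 and Grem1 kept the sign of their called differences under each scaling, but Id2 was not called in siRNA against negative control with median scaling (0.51, adjusted p = 0.145). Beside those medians of all genes, the median of the 7 tested members was -0.12 for siRNA against negative control, -0.73 for pcDNA3.1 against negative control and 0.33 for siRNA against the plasmids.

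The rest of the pathway was read from 6 lists. Against the negative control, where 12.4% of all genes were called, the siRNA group had most calls among secreted antagonists, BMP-induced genes and myogenic factors. The lists were not tested against that share. Of 11 measured antagonists 4 rose and none fell: Chrdl1, a chordin relative, by 1.60 (SE 0.18, adjusted p = 0.00603), Sost, which codes for sclerostin, by 1.56 (SE 0.22, adjusted p = 0.0123), Fstl3 by 0.94 (SE 0.19, adjusted p = 0.0323) and Fst, which codes for the activin- and BMP-binding follistatin, by 0.89 (SE 0.15, adjusted p = 0.0185). The median over the list was 0.32. Chrdl1 and Sost were dim, at -3.44 and -3.78 in siRNA, and the other Chrdl1 probe differed by 1.38 (SE 0.20).

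Of 7 E proteins and myogenic factors, the partners and opponents of Id proteins, 3 rose and 1 fell in siRNA. Myog, the factor of terminal differentiation, rose by 3.47 (SE 0.15, adjusted p = 0.000405), from -2.22 to 1.25. Myod1 rose by 2.29 (SE 0.35, adjusted p = 0.0157) and Myf6 by 1.19 (SE 0.15, adjusted p = 0.00888), and Myf5, a factor of undifferentiated myoblasts, fell by 2.86 on the log2 scale (SE 0.34, adjusted p = 0.00702). Id2, Myog and Myod1 were thus each highest on the siRNA arrays.

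Of 11 other BMP-induced and osteoblast genes, 4 rose and 1 fell in siRNA. Hey1, a Notch and BMP target that was dim, rose by 2.20 (SE 0.16, adjusted p = 0.00157), from -4.85 to -2.65. Tnfrsf11b, which codes for osteoprotegerin, rose by 0.93 (SE 0.16, adjusted p = 0.0211) and Msx2 by 0.79 (SE 0.14, adjusted p = 0.0249). The homeobox gene Dlx3 fell by 0.88 on the log2 scale (SE 0.15, adjusted p = 0.0223). The median over the list was 0.08. Among 8 other ligands, Gdf6, which was dim, rose by 1.27 (SE 0.19, adjusted p = 0.0154), from -6.09 to -4.82. Among 9 receptors and co-receptors, Bmpr1b, a type I receptor that was dim, rose by 0.72 (SE 0.14, adjusted p = 0.0277), from -5.38 to -4.65. Rgmb, a BMP co-receptor, fell by 2.14 on the log2 scale (SE 0.24, adjusted p = 0.00612). The siRNA spots of Bmpr1a were outlying on all 3 arrays and gave no value. Of 10 Smads and their regulators none was called by its brightest probe, the lowest p being that of Skil (adjusted p = 0.209). Outside that count, the other Smurf2 probes differed by -0.74 (SE 0.15) and 0.03 (SE 0.15).

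The medians of the lists moved with the negative control sample, where leaving 1 out keeps only 1 sample of that group. For antagonists, E proteins and myogenic factors, BMP-induced genes, ligands, receptors, and Smads and regulators they were 0.32, 0.64, 0.08, -0.41, 0.11 and 0.20. Without replicate 2 they were 0.13, 1.17, 0.67, -0.56, 0.08 and 0.13. Without replicates 1 and 3 they were 0.34, 0.47, 0.12, -0.12, 0.15 and -0.04, in the same order of lists.

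**Figure D4:**
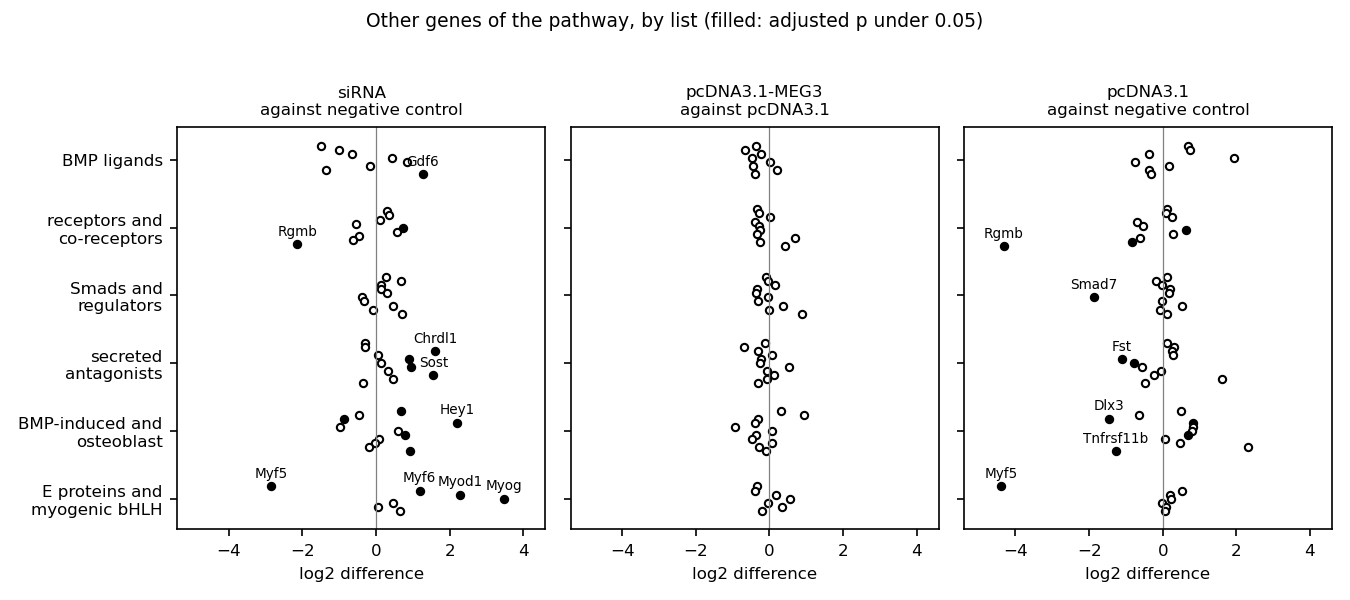
Log2 difference (horizontal axis) of each measured gene of 6 pathway lists in 3 comparisons, filled where the adjusted p was under 0.05 and named where a called difference exceeded 1. Myog, Myod1 and Hey1 lie farthest to the right for siRNA, Rgmb and Myf5 lie farthest to the left in both comparisons with the negative control, and no gene is filled in the plasmid comparison.

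Smad7 and 2 of the listed secreted antagonists were lower with pcDNA3.1 than in the negative control. In that comparison 17.9% of all genes were called, 11.3% higher and 6.64% lower, and the lists were not tested against this share. Of 11 antagonists none rose and 2 fell, with differences of -1.12 for Fst (SE 0.15, adjusted p = 0.00844) and -0.77 for Fstl1 (SE 0.17, adjusted p = 0.0338). Smad7, the other inhibitory Smad, fell from 1.04 to -0.82, a difference of -1.86 (SE 0.18, adjusted p = 0.007), and was the 1 call among 10 Smads and regulators. Among 10 receptors and co-receptors the dim Bmpr1b rose by 0.64 (SE 0.14, adjusted p = 0.0301), from -5.38 to -4.73. Rgmb differed by -4.32 (SE 0.24, adjusted p = 0.000684) and Rgma by -0.84 (SE 0.21, adjusted p = 0.046). Rgmb read -1.73 in the negative control and -6.04 with pcDNA3.1, where 2 of 3 arrays were well above background.

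BMP-induced genes went both ways in that comparison, 2 of 11 higher and 2 lower. Hey1 rose by 0.83 (SE 0.16, adjusted p = 0.0222) and Msx2 by 0.68 (SE 0.14, adjusted p = 0.0293), while Dlx3 differed by -1.46 (SE 0.15, adjusted p = 0.00488) and Tnfrsf11b by -1.28 (SE 0.16, adjusted p = 0.00779). Of 7 E proteins and myogenic factors Myf5 fell, with a difference of -4.40 (SE 0.34, adjusted p = 0.00181). Myf5 read -6.39 with pcDNA3.1, where 2 of 3 arrays were well above background, so the size is near a bound. Of 8 ligands none was called, the lowest p being that of Bmp6 (adjusted p = 0.118). For antagonists, E proteins and myogenic factors, BMP-induced genes, ligands, receptors, and Smads and regulators the list medians were -0.05, 0.10, 0.50, -0.07, -0.23 and 0.06. Without negative control replicate 2 they were -0.24, 0.39, 0.71, -0.26, -0.13 and -0.04. Without replicates 1 and 3 they were 0.14, -0.19, 0.51, 0.09, -0.12 and 0.05, in the same order of lists.

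Between the plasmid groups no gene of the 6 lists was called. The gene with the lowest p in each was Myog (0.57, adjusted p = 0.313), Fstl3 (0.53, adjusted p = 0.455), Atoh8 (0.95, adjusted p = 0.463), Eng (0.69, adjusted p = 0.502), Smad5 (-0.36, adjusted p = 0.556) and Gdf6 (-0.38, adjusted p = 0.558). In siRNA against the plasmid groups together, 18.7% of all genes were called, 10.6% higher and 8.12% lower. Of 11 antagonists 5 were higher in siRNA and none lower, led by Fst (2.12, SE 0.13, adjusted p = 0.000514) and Sost (1.74, SE 0.19, adjusted p = 0.00342). There 4 of 7 E proteins and myogenic factors, 3 of 11 BMP-induced genes, 2 of 9 receptors, 1 of 10 Smads and regulators and 1 of 8 ligands were higher and none was lower. The Smad among them, Smad7 (1.49, SE 0.20, adjusted p = 0.0116), rests on 1 siRNA array, since the spots of the other 2 were outlying and left out.

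Markers of the labelled cell type and of others were read beside these values. All 7 myoblast markers were well above background on every negative control array, and 6 of 7 on every array of each other group. Their summed level, relative to the 75th percentile, was 17.6 to 21.3 in the negative control, 19.7 to 22.5 in the plasmid groups and 41.0 to 42.5 in siRNA. Chrna1, a subunit of the muscle acetylcholine receptor, makes up most of that sum, and without it the ranges were 5.29 to 8.52, 5.28 to 6.09 and 8.43 to 8.89. Of the 7 myoblast markers 3 were higher and 1 lower (Myf5) in siRNA than in the negative control, with a median of 0.02, beside 12.4% of all genes called. All 6 markers of differentiated muscle rose in siRNA against the negative control (6 of 6, median 3.73, and a median of 3.77 without negative control replicate 2). Their summed level was 0.71 to 0.72 in the negative control, 1.08 to 1.34 in the plasmid groups and 24.8 to 25.6 in siRNA. Id2 and Id1 were thus highest where muscle differentiation genes were highest, and the part of differentiation in the result was not tested. In bulk RNA, fewer cells of a type and less RNA per cell cannot be told apart.

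The other marker lists were detected too. Of the 5 fibroblast markers, Col1a1 had no value in 1 of the pcDNA3.1 samples, and the other 4 had a summed level of 35.0 to 38.5 in the negative control, 21.5 to 27.4 in the plasmid groups and 35.6 to 37.0 in siRNA. Dcn makes up most of that sum. Without it the ranges were 3.32 to 4.54, 2.70 to 3.84 and 2.49 to 2.53, so that siRNA was the lowest. The sums were 2.27 to 3.55 for 5 of 6 macrophage and leukocyte markers, 0.94 to 1.53 for 5 of 5 endothelial, 0.09 to 0.24 for 4 of 5 osteoblast and 1.64 to 2.00 for 5 of 5 adipocyte markers over all groups. In siRNA against the negative control, 1 of 5 macrophage and leukocyte, 1 of 5 endothelial and 1 of 4 osteoblast markers were called higher and none lower, beside 12.4% of all genes. The osteoblast marker was Alpl, which was dim (-4.75 to -4.07). No adipocyte or fibroblast marker was called there. Tek in siRNA, and Adipoq in siRNA and pcDNA3.1, were well above background on 0 of 3 arrays. Myod1, Myf5 and Myog are also in the list of E proteins and myogenic factors. Runx2, Sp7, Alpl and Ibsp are in both the osteoblast and the BMP-induced lists. The part of other cells in the results was not tested.

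Over the 8 samples the members varied in different ways, as a description, since samples of a group share their transfection and slide. Grem1 and Id2 ran opposite ways (r = -0.94), Id1 and Id2 alike (r = 0.76), and Id3 was nearly unrelated to Grem1 (r = 0.01) and to Id2 (r = 0.17). Bmp4 tracked Smad6 (r = 0.73) more than Id1 (r = 0.14), Id2 (r = 0.40) or Id3 (r = -0.04).

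Among 13080 reference-named genes well above background on all 12 arrays, those most like Id1, Id2, Id3 and Bmp4 over the 8 samples were found by Pearson's r. Id1 was closest to Rpe65 (0.978), Olfr478 (0.972) and Tnni1 (0.971). Id2 was closest to Tnfrsf11b (0.997), a gene of the BMP-induced list above, Tmem203 (0.994) and Cdhr1 (0.994). Id3 was closest to Inca1 (0.985), Des (0.982), which codes for the muscle filament desmin, and Fmnl3 (0.979), and Bmp4 to Pagr1a (0.977), Slc25a46 (0.972) and Zfp653 (0.969). By Spearman's rho the 3 closest genes differed for each of these 4 members, Id2 for example standing with Slc7a7, Nt5e and Gng11 (rho = 1 for each).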

How the data were processed

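The 12 single-colour Agilent arrays were read from the deposited scanner files. Per the file headers, gProcessedSignal is a background-subtracted spot intensity on a linear scale from Feature Extraction 11.0.1.1, and other columns hold outlier, saturation and well-above-background flags, each scored 0 or 1. The authors' deposited series table, of intensity values on a linear scale (column medians 276 to 277), served as an alternative; the sources used here do not state how it was normalised. A log2 scale was computed here.

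Of 44397 spots, 1377 controls and outlying spots were left out, spots of a probe averaged, log2 intensities scaled by each array's 75th percentile, probes kept if well above background on all 3 arrays of a group, and the brightest probe taken per gene (24571 genes). Accessions matched a RefSeq symbol for 27234 probes; the other 12195 kept the file's name. RefSeq is of a later build than the arrays (mm9) and gave names and promoter windows only.

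Replicates 1 and 3 differed by 0.285 to 0.653 times the spot noise (276 probes spotted repeatedly) and were averaged. Replicates 1 and 2 of the plasmid and siRNA groups, at 0.755 to 0.905, were also below it but kept apart, an uneven treatment. Same-numbered arrays did not pair (r = -0.074 to 0.016). limma 3.58.1 in R 4.3.3 (tables read through data.table, version 1.17.8) fitted the 8 samples of 4 groups together (two-sided, 4 residual and 1.90 prior degrees of freedom), and was tested on simulated data. Figures used matplotlib. Members, lists and tests were chosen with earlier results of these data known. 1 gene of the antagonist list is not reported here and is in none of its counts. Members were named with every probe, from each list up to 4 called genes by size and otherwise the lowest p, and 3 genes most like Id1, Id2, Id3 and Bmp4. Normexp used gMedianSignal, not the planned gMeanSignal. For a gene dim in a whole group, the bound is the lowest signal well above background or its own, if higher. The alternatives were other samples, scalings, filters, probes, blocks and left-out samples. The number of arrays limits precision.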

Additional observations from a re-analysis of the deposited data

How the results depend on the processing

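Main counts of called genes were 3048 for siRNA against negative control (A), 2 for the plasmid comparison (B), 4406 for pcDNA3.1 against negative control (C) and 4584 for siRNA against the plasmid groups (D), with 2, 0, 4 and 3 members among them. With 12 arrays as 12 samples the genes called were 9859 (A), 3013 (B), 12109 (C) and 12765 (D), with 1 member in B. With the compared groups alone they were 159 (A), 1956 (B) and 9414 (D), with 0, 2 and 5 members. With a replicate block, the fits called 1839 genes and 0 members in A, 1 gene in B and 2 members in C; the pairing is in number only. Normexp called 11 genes in B, 1 member in A and 2 in C. B had 22 calls with probes bright on all arrays, 9 with quantile normalisation and 10 by the authors' deposited values. With scan as a block B had 11185 calls and within the first scan 1770, with 2 members each. Without the dim filter, 1965 genes and 0 members were called in A and 2 members in C. Median scaling left 1 member in A. With each sample left out, calls ranged from 1952 to 7455 (0 to 5 members) in A, 0 to 0 in B (1051 to 1572 at an unadjusted p under 0.05 by limma), 523 to 9189 (0 to 5 members) in C and 1642 to 4872 (2 to 3 members) in D. A group left with 1 sample is assumed to vary like the others.

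Signs turned for 4 members. Bmp4 in B was 0.034 with median scaling, 0.010 with quantile normalisation, 0.015 by the authors' values and from -0.38 to 0.34 with samples left out. With its probes averaged it was 0.17 in C and -0.26 in D. In A, Id3 was 0.045 with 12 arrays. In A with samples left out, Bmp4 ranged from -1.005 to 0.12, Id3 from -0.60 to 0.36, Grem1 from -0.59 to 0.030 and Nog from -0.52 to 1.77. The cause was not tested. No scan block could be fitted across slides, since each holds other groups.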
